A study of Mus musculus with 2 samples.

Results

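Tumour necrosis factor (Tnf), the lymphotoxins Lta and Ltb, and their receptors Tnfrsf1a, Tnfrsf1b and Ltbr were followed across the cells of joint-draining lymph nodes in mice with inflammatory-erosive arthritis. These 6 genes were picked by symbol from the 32285 genes that both count matrices list, as the ligands and receptors of 1 signalling family. Single cells of popliteal lymph nodes (PLNs), which lie behind the knee and receive lymph from the hindpaw, were sequenced from male TNF-Tg mice on a C57BL/6 background. In the Advanced group the mice were over 8 months of age, and in the Early group they were between 5 and 6 months. Each group was 1 library made from 6 PLNs of 3 mice pooled before sequencing, so no difference between the groups has a replicate check, and age, stage of arthritis and library cannot be told apart. All mice of both groups carried the TNF transgene, and no wild-type cells were among the data analysed here. The transgene carries human TNF, and the matrices had 0 rows without a mouse gene identifier, so Tnf below is the count given to the mouse gene, and whether reads of the transgene entered it was not tested. Which promoter drives the transgene was not given in the sources used here. Live nucleated cells were sorted on Hoechst and Sytox Green, with no selection of a lineage.

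TNF is made as a membrane protein and is released by the protease ADAM17. It signals through TNFR1, encoded by Tnfrsf1a, which most cell types carry and which can drive both NF-kB signalling and cell death, and through TNFR2, encoded by Tnfrsf1b, which is largely a receptor of leukocytes and endothelium and is prominent on regulatory T cells. Lymphotoxin alpha, encoded by Lta, is secreted as a homotrimer that binds the TNF receptors, or is held at the cell surface in a heterotrimer with lymphotoxin beta, encoded by Ltb. That heterotrimer binds the lymphotoxin beta receptor, encoded by Ltbr, on stromal and myeloid cells. Lymphotoxin from B cells maintains the follicular dendritic cells and the CXCL13 that organise the follicles of a lymph node, and mice without lymphotoxin lack most lymph nodes.

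In the mouse genome (GRCm38) the ligands lie side by side on chromosome 17 and 2 of the receptors lie near each other on chromosome 6. Ltb occupies chr17:35194439-35196320 on the plus strand, Tnf chr17:35199381-35202007 on the minus strand and Lta chr17:35203165-35205351 on the minus strand. The gap is 3060 bp between Ltb and Tnf and 1157 bp between Tnf and Lta, and the cluster spans 10913 bp. Ltbr, at chr6:125306571-125313885 on the minus strand, and Tnfrsf1a, at chr6:125349362-125362484 on the plus strand, are 35476 bp apart with the protein-coding gene Scnn1a between them. Tnfrsf1b lies elsewhere, at chr4:145213463-145246870 on the minus strand. RefSeq promoter windows were found for 6 of the 6 genes (build GRCm38.p6). The bases upstream of the start of the clustered ligands are shown, because these neighbours differed in the cells that held them, with a match to the NF-kB consensus in capitals.
Ltb: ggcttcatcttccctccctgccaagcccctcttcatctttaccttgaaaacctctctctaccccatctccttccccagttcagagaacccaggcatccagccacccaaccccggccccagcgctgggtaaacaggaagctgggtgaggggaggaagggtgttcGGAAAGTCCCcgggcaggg
Tnf: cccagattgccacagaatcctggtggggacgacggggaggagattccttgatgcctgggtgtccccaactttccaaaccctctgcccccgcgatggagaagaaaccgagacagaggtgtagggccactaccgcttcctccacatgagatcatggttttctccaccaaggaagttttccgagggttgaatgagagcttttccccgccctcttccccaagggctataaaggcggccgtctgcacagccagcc
Lta: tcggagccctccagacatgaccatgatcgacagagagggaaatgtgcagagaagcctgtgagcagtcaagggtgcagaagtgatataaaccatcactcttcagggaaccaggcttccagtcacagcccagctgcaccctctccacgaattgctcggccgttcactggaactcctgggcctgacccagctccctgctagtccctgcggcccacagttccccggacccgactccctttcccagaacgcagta
The Ltb sequence is chr17:35194257-35194438 on the plus strand and ends where the GENCODE gene begins, the Tnf sequence is chr17:35202008-35202257 and the Lta sequence chr17:35205352-35205601, both read on the minus strand. The search ran on both strands over the 250 bases before the RefSeq start. A match to the NF-kB consensus lay from 87 to 78 bases upstream of the RefSeq start of Ltb, which lies inside the GENCODE gene. None of the other 5 windows held a match, while 7.25% of the 32851 RefSeq promoters held one. The TATA motif (TATAAA) lay from 29 to 24 bases upstream of Tnf and from 167 to 162 bases upstream of Lta, and 12.4% of all promoters held it. The letters GAGGAAG, a form of the ETS motif, were found upstream of Ltb, Tnf and Tnfrsf1b, against 10.6% of all promoters. Other forms of that motif were not searched. A match is a stretch of letters and not a bound site, and the lack of one says only that those letters are not in the window.

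The Advanced library held 8183 cells and the Early library 8221 after barcodes with fewer than 200 genes were set aside, with medians of 7837 and 6643 unique molecular identifiers (UMIs, 1 per captured RNA molecule) per cell. Cells were placed in a class by raw UMIs of marker genes, none of them a member of the family, which placed 90.8% of Advanced and 96.7% of Early cells. A further 416 Advanced and 102 Early cells carried markers of more than 1 lineage and were kept apart as mixed. Mature B cells made up 70.8% of Advanced and 91.5% of Early cells (5795 and 7522 cells), and T cells 13.2% of Advanced and 1.85% of Early cells (1079 and 152 cells). Levels are given as CPM, the UMIs of a gene per 1000000 UMIs of the class. Monocytes or macrophages numbered 166 and 94 cells, of which 158 and 93 were non-classical monocytes, with their marker Ace at 728 and 653 CPM. Dendritic cells numbered 119 and 60, with Fscn1, a marker of mature migratory dendritic cells, at 912 and 670 CPM. Only 4 Advanced cells and 0 Early cells passed the macrophage gate. Few cells had several stromal genes: 1 Advanced and 0 Early cells had UMIs of at least 2 genes of the fibroblastic and follicular panel, while at least 2 of the 5 endothelial genes were seen in 76 Advanced and 47 Early cells and at least 3 in 1 and 2 cells. No stromal class was gated, so the stromal side of the lymphotoxin axis was not read. The libraries shared 20 cell barcodes. All intervals below are 95% and cover counting error only.

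**Figure D1:**
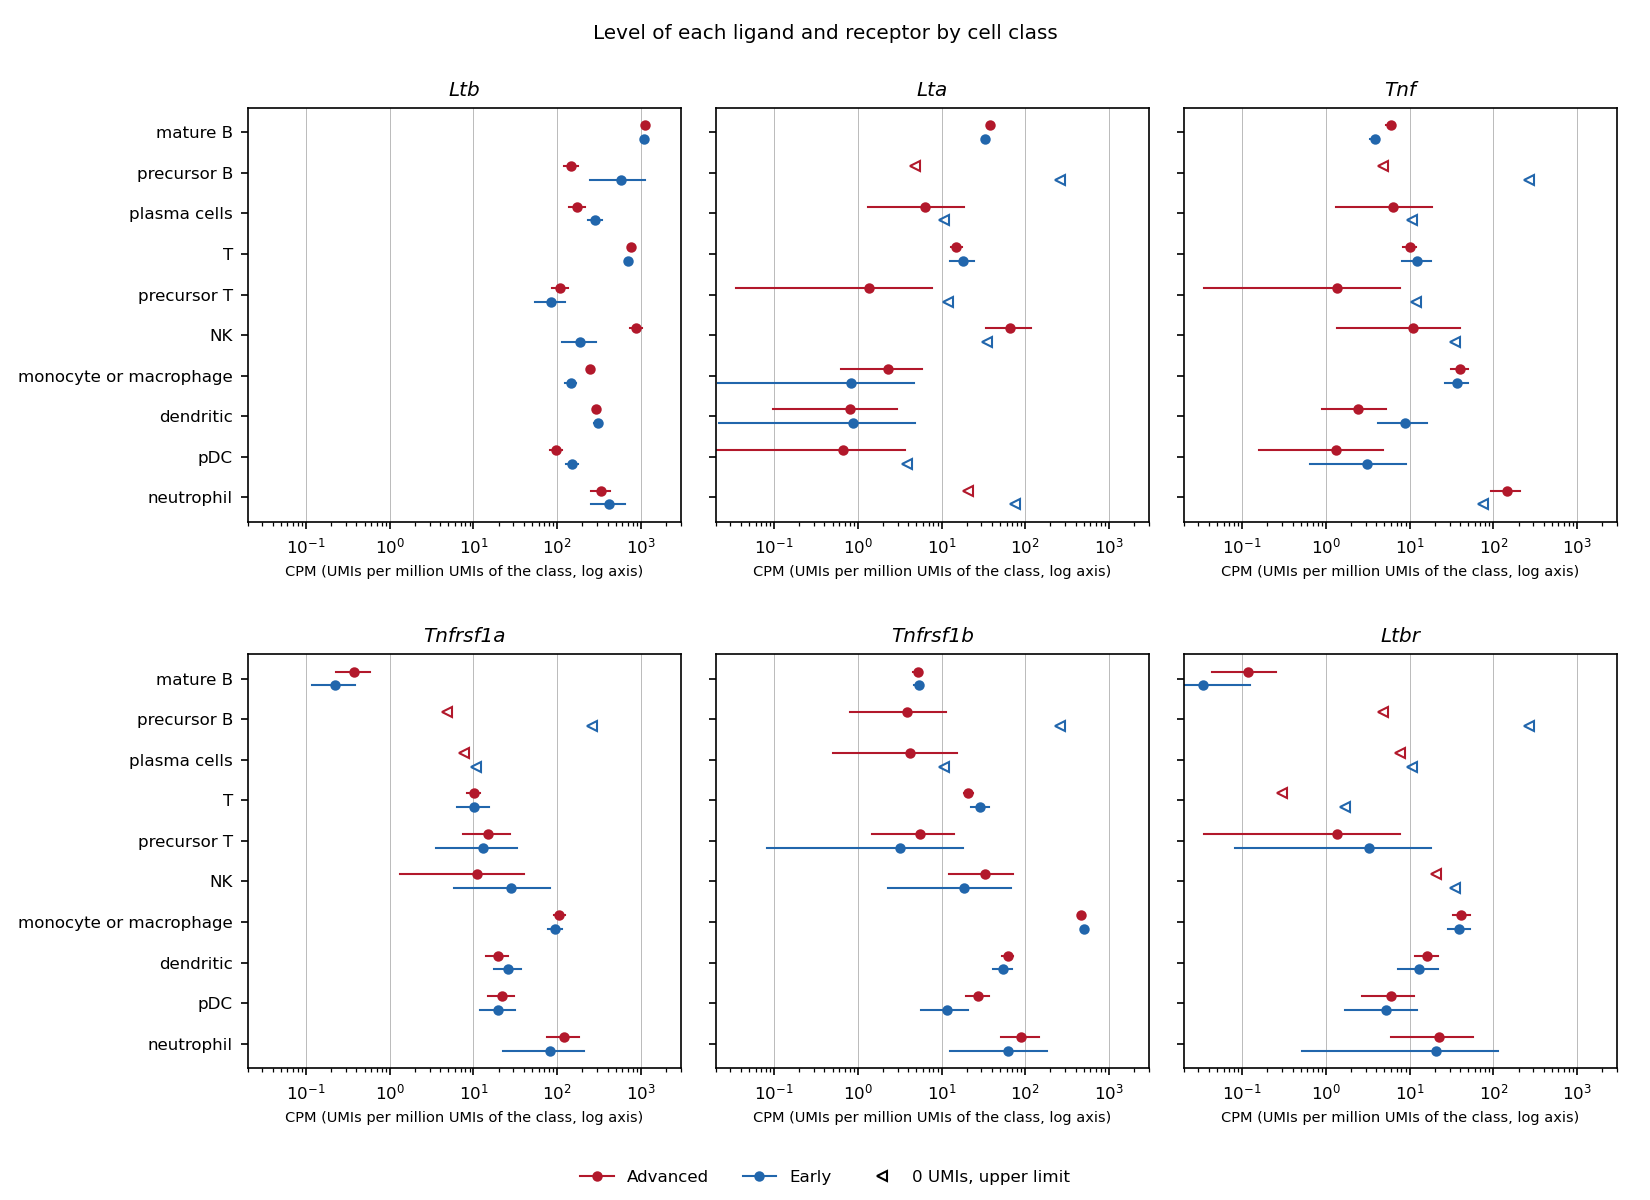
CPM (log axis) of each gene in 10 cell classes in the Advanced and the Early library, with points for the level, bars for exact Poisson 95% intervals and open triangles for the upper limit where no UMI was seen, and with bars stopped at the axis edge. Among the classes plotted Ltb was highest in mature B cells, at 1105 and 1100 CPM, and Tnfrsf1b in monocytes or macrophages, at 463 and 506 CPM.

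Lymphotoxin beta was seen in nearly every lymphocyte, and was the most widely detected of the family. Ltb stood at 1105 CPM in Advanced mature B cells (1096 to 1114) and at 1100 CPM in Early ones (1092 to 1109), and 98.4% and 98.7% of these cells had a UMI of it. T cells held 770 CPM in the Advanced library (755 to 786) and 704 CPM in the Early library (669 to 740), which was 0.697 and 0.640 of the mature B level. Both lymphocyte lineages thus carried Ltb in almost every cell. In CPM, B cells were ahead by more than the counting error at both stages. T cells had more UMIs per cell, however, with medians of 10799 and 10405 against 7427 and 6588 in mature B cells. The median was 8 and 8 Ltb UMIs per T cell and 8 and 7 per mature B cell, so B cells did not lead at both stages by that count. Outside lymphocytes, the other myeloid cells, those with myeloid genes that passed no narrower gate, held 1152 CPM in 17 Advanced cells (181 UMIs, 104 of them in 1 cell) and 809 CPM in 8 Early cells (63 UMIs, 30 of them in 1 cell). Neutrophils held 332 and 412 CPM in 15 and 4 cells. Dendritic cells stood at 291 CPM in the Advanced and 306 CPM in the Early library, then monocytes or macrophages at 247 and 145 CPM and plasmacytoid dendritic cells (pDCs) at 98.0 and 150 CPM. In the Early library the monocyte and pDC levels differed by no more than their error (ratio of pDCs to monocytes 1.03, 0.819 to 1.29).

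RNA released from B cells could put Ltb UMIs into other droplets, and the data give a measure of it. The B cell genes Ighd, Pax5, Ebf1 and Fcrla stood in monocytes or macrophages at 2.68% of their B cell level in the Advanced library and 2.04% in the Early library, which corresponds to 29.6 and 22.5 CPM of Ltb. The observed Ltb level was 8.34 and 6.48 times that. In dendritic cells it was 12.8 and 19.3 times the corresponding level, and in T cells 30.0 and 41.2 times. Ltb in monocytes or macrophages and dendritic cells was therefore above the level given by the sum of the 4 genes. Single genes did not keep 1 ratio, however. In monocytes or macrophages Ighd stood at 4.80% and 4.76% of its B cell level, and Ebf1 at 1.63% and 0.489%. The size of the excess thus depends on the genes used, and the source of the myeloid Ltb was not tested. In pDCs the 4 genes gave no measure, because pDCs held Fcrla, an Fc receptor-like gene, at 154% and 157% of the B cell level. With the other 3 genes, Ltb in pDCs was 4.34 and 9.07 times the corresponding level.

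Within the B lineage, Ltb made up a low share of the UMIs at the start and at the end of B cell life. Advanced precursor B cells, which carry the surrogate light chain genes, held 145 CPM (120 to 175, 39 cells), or 0.131 of the mature level, and the 2 Early cells had 8 UMIs in all. Plasma cells, which secrete antibody, held 173 CPM in the Advanced library and 284 CPM in the Early library (12 and 10 cells), or 0.157 and 0.258 of the mature level. The 4 B cell genes above stood in them at 12.2% and 16.04% of the mature level, and Ltb was 1.28 and 1.61 times the level that corresponds to it, so that B cell RNA in these droplets could not be told apart from their own Ltb. Cycling B cells were intermediate at 632 and 519 CPM, which was 0.551 (0.525 to 0.579) and 0.458 (0.432 to 0.485) of the level in CD23+ CD21+ B cells. Cycling cells had medians of 21997 and 22181 UMIs per cell, against 7961 and 7050 in CD23+ CD21+ cells. They held 1714 Ltb UMIs in 108 cells and 1203 in 89, against 24185 in 2263 and 25028 in 2648 cells. The lower CPM was thus a lower share of their UMIs, and not fewer Ltb UMIs per cell. In CPM these 3 groups lay below the resting mature groups. For the 2 Early precursor B cells the interval reached the mature level (0.519 of it, 0.224 to 1.02). Plasma cells had medians of 28674 and 32465 UMIs per cell, against 7427 and 6588 in mature B cells. Plasma cells held 82 Ltb UMIs in 12 Advanced cells and 99 in 10 Early cells, where the median mature B cell had 8 and 7. Their low CPM thus need not mean fewer Ltb UMIs per cell.

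Resting B cell groups were told apart by Fcer2a, which encodes CD23 of follicular B cells, and Cr2, which encodes CD21. Ltb was highest in CD23+ CD21-low cells, at 1242 and 1191 CPM. The level in CD23+ CD21+ cells, 1146 and 1132 CPM, was 0.922 (0.901 to 0.944) and 0.951 (0.929 to 0.972) of it. CD23-low CD21+ cells held 1057 and 1075 CPM, and the Bhlhe41+ cells, gated on a transcription factor of B-1 cells, 1044 and 1015 CPM. The level in Bhlhe41+ cells was 0.987 (0.943 to 1.03) of that in CD23-low CD21+ cells in the Advanced and 0.944 (0.892 to 0.998) in the Early library, a step within the counting error in the Advanced library alone. The other mature B cells stood at 1094 and 1145 CPM.

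In T cells, the lowest Ltb stood in immature cells. Precursor T cells, gated on Rag1 and Dntt, the enzymes of receptor gene rearrangement, held 108 CPM in the Advanced and 84.1 CPM in the Early library, or 0.141 and 0.119 of the T cell level. Such cells are typical of the thymus, and whether they came from the node was not tested. Among mature T cells the level was 739 and 745 CPM in CD8 T cells, 797 and 876 CPM in CD4 T cells and 912 and 847 CPM in regulatory T cells. Regulatory T cells were above CD8 T cells by 1.23-fold in the Advanced library (1.16 to 1.31) and 1.14-fold in the Early library (1.00 to 1.29). Innate-like T cells, with genes of gamma-delta or PLZF-dependent T cells, held 995 and 1366 CPM in 44 and 8 cells.

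Lta, the partner chain, was seen chiefly in lymphocytes. It stood at 37.8 CPM in Advanced mature B cells (36.2 to 39.6) and at 33.1 CPM in Early ones (31.7 to 34.7), with a UMI in 24.2% and 20.02% of cells. T cells held 15.1 CPM (13.0 to 17.4) and 17.9 CPM (12.7 to 24.5), 0.399 and 0.540 of the mature B level. Outside lymphocytes Lta was close to absent: 4 and 1 UMIs were counted in monocytes or macrophages, 2 and 1 in dendritic cells, and 1 and 0 in pDCs. The levels of 2.31 and 0.836 CPM in monocytes or macrophages were 2.28 and 1.24 times those that B cell RNA would give, so no expression by myeloid cells could be read from them. In this Lta differed from Ltb, whose myeloid level was several times the B cell RNA level by the same summed genes.

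The B cell groups that led for Lta were not those that led for Ltb. CD23+ CD21+ cells held 43.0 CPM of Lta in the Advanced and 37.6 CPM in the Early library, and CD23-low CD21+ cells 41.6 and 33.8 CPM. CD23+ CD21-low cells, the highest for Ltb, held 29.8 and 27.0 CPM, so that CD23+ CD21+ cells were 1.44-fold (1.25 to 1.66) and 1.39-fold (1.21 to 1.61) above them. Cycling B cells, which had more UMIs per cell, stood at 30.6 and 28.4 CPM, 0.712 and 0.756 of the CD23+ CD21+ level in CPM. Precursor B cells had 0 UMIs of Lta in both libraries, which allows up to 4.78 CPM in the 39 Advanced cells. Precursor T cells had 1 and 0 UMIs.

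Among T cells, Lta was higher in regulatory than in CD8 T cells at both stages. Regulatory T cells stood at 27.3 CPM (19.8 to 36.8) in the Advanced and 34.6 CPM (21.9 to 51.9) in the Early library, against 7.28 and 7.18 CPM in CD8 T cells, a ratio of 3.75 (2.40 to 5.84) and 4.82 (1.65 to 19.2). In the Advanced library innate-like T cells had 94.2 CPM, but 20 of the 43 UMIs came from 1 cell. In the Early library the 8 innate-like cells had 3 UMIs. The other T cells had 38 and 2 UMIs, and T cells with NK genes 11 and 7, so neither was higher at both stages. NK cells, gated without CD3 genes, had 12 UMIs in 2 of 16 Advanced cells and 0 UMIs in 6 Early cells.

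The 2 chains of the membrane heterotrimer were seen in the same cells. Of the mature B cells with an Lta UMI, 99.4% in the Advanced library (1395 of 1404) and 99.1% in the Early library (1492 of 1506) also had a UMI of Ltb, close to the 98.4% and 98.7% of all mature B cells with Ltb. In T cells 103 of 104 Advanced and 20 of 21 Early cells with Lta had Ltb as well. Cells with both chains made up 24.1% of Advanced and 19.8% of Early mature B cells, and 9.55% and 13.2% of T cells. In monocytes or macrophages they were 4 of 166 and 1 of 94 cells. These shares move with the depth of a cell, and at 2000 UMIs per cell Lta was seen in 7.01% and 6.28% of mature B cells.

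Tnf had another distribution from its neighbours, with monocytes above both T cells and mature B cells at both stages. Non-classical monocytes, which patrol the vessel wall, held 42.3 CPM in the Advanced library (32.8 to 53.6, 68 UMIs in 36 of 158 cells) and 38.2 CPM in the Early library (27.7 to 51.3, 44 UMIs in 25 of 93 cells). T cells held 10.0 CPM (8.35 to 11.9) and 12.4 CPM (8.17 to 18.0), and mature B cells 5.92 CPM (5.27 to 6.63) and 3.83 CPM (3.34 to 4.37). Monocytes or macrophages were thus 6.73-fold (5.11 to 8.77) and 9.61-fold (6.79 to 13.3) above mature B cells, and T cells 1.69-fold (1.36 to 2.09) and 3.24-fold (2.09 to 4.84). The order monocytes, T cells, B cells was the same at both stages, and each step was larger than the counting error. Dendritic cells had 6 and 10 UMIs and pDCs 2 and 3 UMIs, so the other antigen-presenting cells did not share the monocyte level.

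In the Advanced library a handful of neutrophils had the most Tnf for their depth. The 15 Advanced neutrophils had 26 UMIs in 8 cells, or 144 CPM (94.1 to 211), whereas the 4 Early neutrophils had none. A count of 0 at that depth allows up to 76.0 CPM, and the lower end of the counting interval of the ratio was 1.76. That interval does not cover differences between cells or libraries, and 1 Advanced neutrophil had 7 UMIs. In T cells, Tnf was spread over few cells: 86 of 1079 Advanced and 16 of 152 Early cells had a UMI. Thinned to 2000 UMIs per cell, Tnf was seen in 7.23% of Advanced and 5.32% of Early monocytes or macrophages, 2.51% and 2.63% of T cells, and 1.13% and 0.639% of mature B cells. The order of these point values was the same at equal depth as in the CPM, and their counting errors were not compared.

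Among T cell groups, Tnf in the Advanced library was led by regulatory T cells, which restrain immune responses and are marked by Foxp3. They held 26.0 CPM (18.7 to 35.3, 41 UMIs in 21 of 172 cells), against 5.46 CPM (3.76 to 7.67) in CD8 T cells, a ratio of 4.76 (2.94 to 7.78). In the Early library regulatory T cells had 5 UMIs in 4 of 67 cells, 7.52 CPM (2.44 to 17.6), and CD8 T cells 2 UMIs. The Advanced over Early ratio in regulatory T cells was 3.46 (1.37 to 11.2), with 5 UMIs in the highest Advanced cell and 2 in the highest Early cell. T cells with NK genes went the other way, with 11 UMIs in 125 Advanced cells (6.09 CPM) and 8 UMIs in 9 Early cells (32.8 CPM). Innate-like T cells held 19.7 CPM (9 UMIs in 8 of 44 cells) in the Advanced and 43.4 CPM (6 UMIs in 3 of 8 cells) in the Early library, above CD8 T cells by 3.61-fold (1.52 to 7.71) and 12.1-fold (2.16 to 122). At these counts the order of T cell groups differed between the libraries, and 9 Early T cells with NK genes and 8 Early innate-like T cells bear the highest Early values.

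**Figure D2:**
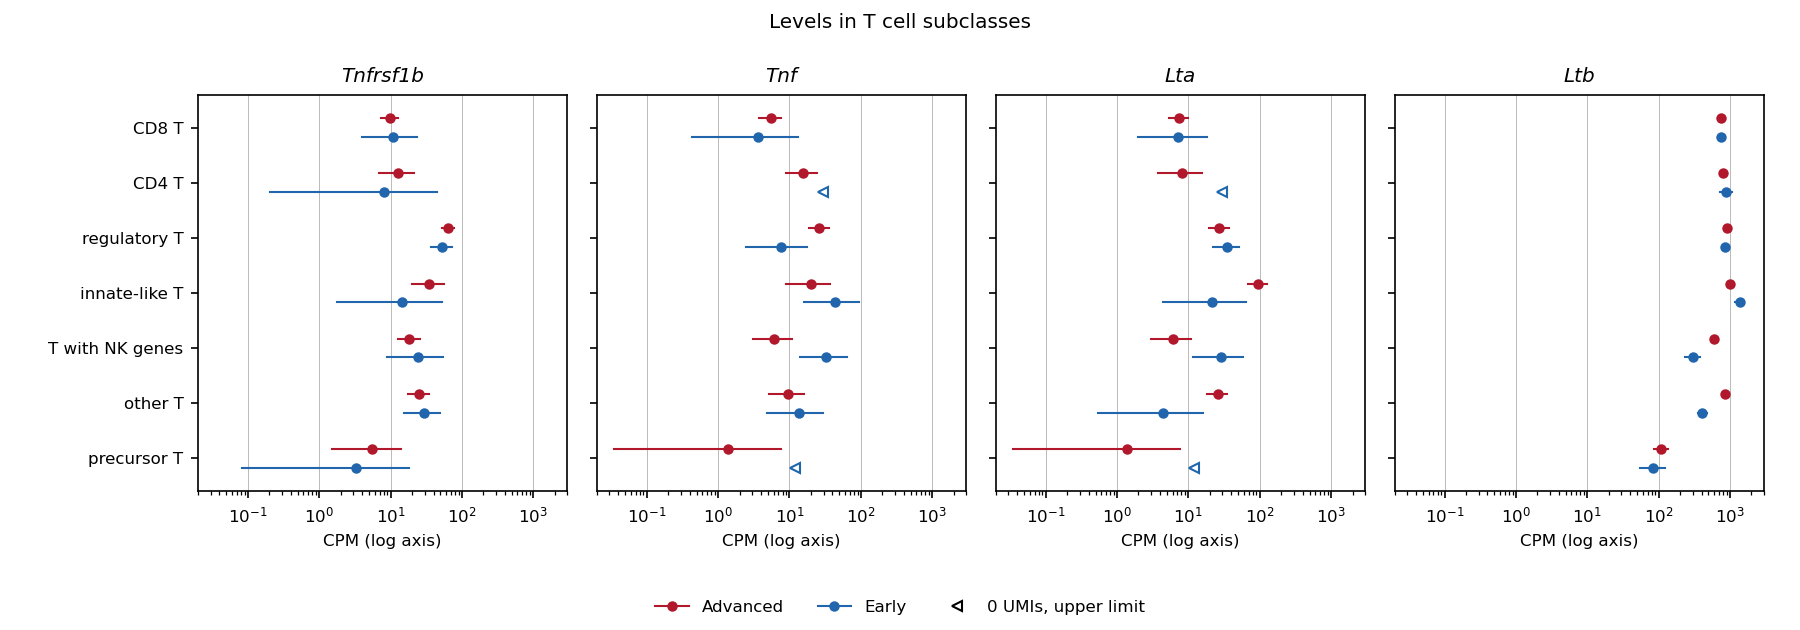
CPM (log axis) of Tnfrsf1b, Tnf, Lta and Ltb in 7 T cell groups in the Advanced and the Early library, with exact Poisson 95% intervals and open triangles for the upper limit at 0 UMIs. Tnfrsf1b was highest in regulatory T cells, at 64.1 and 52.6 CPM, and Ltb was lowest in precursor T cells, at 108 and 84.1 CPM.

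Although low per cell, Tnf in mature B cells stood well above the level that traces of other classes would give. Cd3e of T cells, Ace of monocytes, S100a8 of neutrophils and Fscn1 of dendritic cells left traces in mature B cells that were larger in the Advanced library, with Cd3e at 3.28 CPM against 0.448 CPM in the Early library and S100a8 at 8.97 against 1.05 CPM. Scaled by these traces, 1 marker per class, the 4 classes would place 0.175 CPM of Tnf in Advanced and 0.0672 CPM in Early mature B cells. The observed levels were 5.92 and 3.83 CPM. Mature B cells, the most numerous class, held the largest share of all Tnf UMIs: 47.2% in the Advanced library (301 of 638 UMIs) and 67.5% in the Early library (222 of 329 UMIs). Of the mature B cells with Tnf, 31.9% and 31.8% also had Lta, against 24.2% and 20.02% of all mature B cells. These shares were not compared at equal depth, and a cell with more UMIs is more likely to show either gene. Whether Tnf and Lta go together in a cell beyond its depth was not tested.

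Tnfrsf1a, which encodes TNFR1, was carried by myeloid cells and was nearly missing from B cells. Non-classical monocytes held 112 CPM in the Advanced (96.1 to 129) and 93.7 CPM in the Early library (76.9 to 113), and neutrophils 122 CPM (22 UMIs) and 82.4 CPM (4 UMIs). Dendritic cells held 19.4 and 26.1 CPM and pDCs 21.7 and 19.9 CPM, levels that could not be told apart (ratio of pDCs to dendritic cells 1.12, 0.697 to 1.78, and 0.761, 0.405 to 1.40). T cells stood at 10.0 and 10.1 CPM, and monocytes or macrophages were 10.6-fold (8.40 to 13.4) and 9.27-fold (5.83 to 15.4) above them.

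In mature B cells 19 Advanced and 13 Early UMIs of Tnfrsf1a were found among 5795 and 7522 cells, which made 0.374 and 0.224 CPM. RNA of the 4 other classes would place 0.387 and 0.157 CPM there by their marker traces, so the B cell level was at or near that background. T cells lay 26.8-fold (16.5 to 46.1) and 45.0-fold (21.7 to 97.3) above mature B cells. CD8 and regulatory T cells did not differ in Tnfrsf1a beyond counting error: CD8 T cells held 8.61 and 14.4 CPM and regulatory T cells 9.52 and 9.02 CPM, a ratio of regulatory to CD8 T cells of 1.11 (0.578 to 1.99) and 0.629 (0.180 to 2.07). Precursor T cells had 15.1 and 12.9 CPM from 11 and 4 UMIs.

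Tnfrsf1b, which encodes TNFR2, was read in nearly every monocyte. Non-classical monocytes held 490 CPM in the Advanced (456 to 525) and 523 CPM in the Early library (482 to 567), with a UMI in 150 of 158 and 92 of 93 cells. Dendritic cells followed at 61.8 and 54.0 CPM, and monocytes or macrophages were 7.50-fold (6.30 to 8.98) and 9.37-fold (7.20 to 12.4) above them. T cells held 20.9 and 28.9 CPM. Mature B cells held 5.21 and 5.31 CPM, and monocytes or macrophages were 88.9-fold and 95.2-fold above them. Neutrophils, with 16 and 3 UMIs, stood at 88.6 and 61.8 CPM. In pDCs, 41 Advanced UMIs gave 27.0 CPM, of which 19 came from 1 cell, and 11 Early UMIs gave 11.5 CPM.

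Regulatory T cells stood out for Tnfrsf1b. They held 64.1 CPM in the Advanced (52.2 to 77.9, 59 of 172 cells with a UMI) and 52.6 CPM in the Early library (36.7 to 73.2, 25 of 67 cells). CD8 T cells held 9.77 and 10.8 CPM, so that regulatory T cells were 6.56-fold (4.71 to 9.21) and 4.89-fold (2.04 to 14.2) above them. CD4 T cells, gated on Cd4 without the regulatory genes, had 12.6 CPM from 14 UMIs and 7.97 CPM from 1 UMI. In the mature B cells the level was 3.80 and 7.68 times that given by RNA of the 4 other classes, unlike Tnfrsf1a and Ltbr. Each class was scaled by 1 marker, and single genes need not keep 1 ratio, so the size of this excess depends on the markers used.

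Ltbr, the receptor of the membrane lymphotoxin heterotrimer, was seen in myeloid cells and in no mature T cell. Non-classical monocytes held 42.9 CPM in the Advanced (33.4 to 54.3, 69 UMIs) and 38.2 CPM in the Early library (27.7 to 51.3, 44 UMIs). Dendritic cells, some of which need this receptor for their upkeep in the mouse spleen, held 16.1 CPM (40 UMIs) and 13.1 CPM (15 UMIs), and monocytes or macrophages were 2.58-fold (1.73 to 3.89) and 3.01-fold (1.65 to 5.79) above them. The pDCs followed at 5.92 and 5.23 CPM. T cells had 0 UMIs among 1079 and 152 cells, which allows up to 0.296 and 1.69 CPM, and by the lower ends of the counting intervals monocytes or macrophages were at least 137-fold and at least 22.3-fold higher. Mature B cells had 6 and 2 UMIs, or 0.118 and 0.0345 CPM, where marker traces of other classes would give 0.164 and 0.0650 CPM. Precursor T cells had 1 UMI in each library. Mature lymphocytes thus carried both chains of the heterotrimer, and no Ltbr above the traces of other classes.

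Pairs of receptors were often seen in the same monocyte. Of the monocytes or macrophages with Tnfrsf1a, 94.4% in the Advanced library (85 of 90) and 98.2% in the Early library (54 of 55) also had Tnfrsf1b. All but 1 of the 54 Advanced and all of the 32 Early ones with Ltbr had Tnfrsf1b. Of the 37 Advanced and 25 Early monocytes or macrophages with Tnf, 35 and 24 had Tnfrsf1b, as did 156 of all 166 and 93 of all 94 cells of the class. In regulatory T cells Tnf and Tnfrsf1b were found together in 8 of 172 and 1 of 67 cells. Among mature B cells with Tnfrsf1a, 0 of 18 Advanced and 0 of 13 Early ones had Tnfrsf1b.

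**Figure D3:**
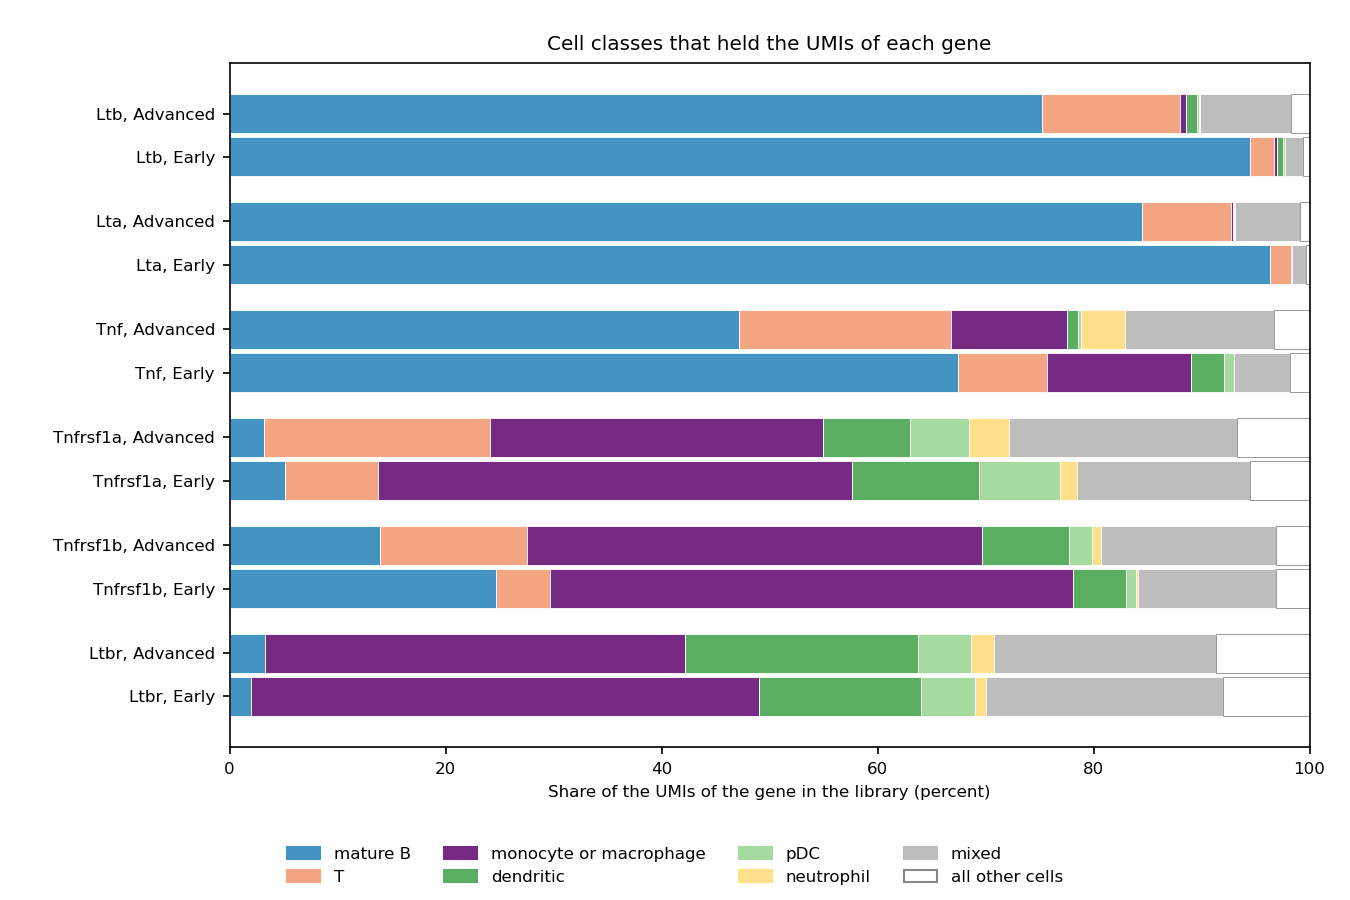
Share of the UMIs of each gene (percent) held by each cell class in the Advanced and the Early library. Mature B cells held 75.2% and 94.5% of Ltb and 47.2% and 67.5% of Tnf, and monocytes or macrophages held 42.1% and 48.4% of Tnfrsf1b.

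Among the sorted cells of each library, mature B cells held most lymphotoxin UMIs, and a small myeloid population held a large share of each receptor. Mature B cells held 75.2% of Ltb UMIs in the Advanced library (74.9% to 75.5%) and 94.5% in the Early library (94.3% to 94.6%), and T cells 12.9% and 2.27%. For Lta the mature B share was 84.5% and 96.3%. Monocytes or macrophages were 2.03% and 1.14% of all cells but held 42.1% and 48.4% of Tnfrsf1b, 38.9% and 47.0% of Ltbr and 30.8% and 43.9% of Tnfrsf1a. Mature B cells held 13.9% of Tnfrsf1b in the Advanced and 24.6% in the Early library. T cells held 20.9% of Tnfrsf1a in the Advanced and 8.63% in the Early library. Mixed cells held between 6.02% of Lta and 21.1% of Tnfrsf1a in the Advanced library and are not assigned to a source.

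The next comparison asked whether the levels differed between stages within a cell class. With 1 library per stage, a gene counted as past the fold when it reached 10 CPM in 1 library and its interval lay wholly beyond 1.5-fold. In mature B cells 2 of the 6 members reached 10 CPM and 0 were past the fold, against 0.405% of 6910 genes higher and 0.0289% lower in the Advanced library. In T cells 5 members reached it and 0 were past the fold, against 1.41% of 7437 genes higher and 9.57% lower. In monocytes or macrophages 5 members reached it and 0 were past the fold, against 0.911% of 7685 genes higher and 0.573% lower, and in dendritic cells 4 members and 0, against 0.601% of 7818 genes higher and 1.2% lower. The family held no gene past the fold in the main classes, in which 0.0289% to 9.57% of all genes were, by class and direction. With so few members measured, a count of 0 lies near those shares and is no result about the family. Tnf in mature B cells, at 5.92 and 3.83 CPM, was below the minimum and could not be counted.

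**Figure D4:**
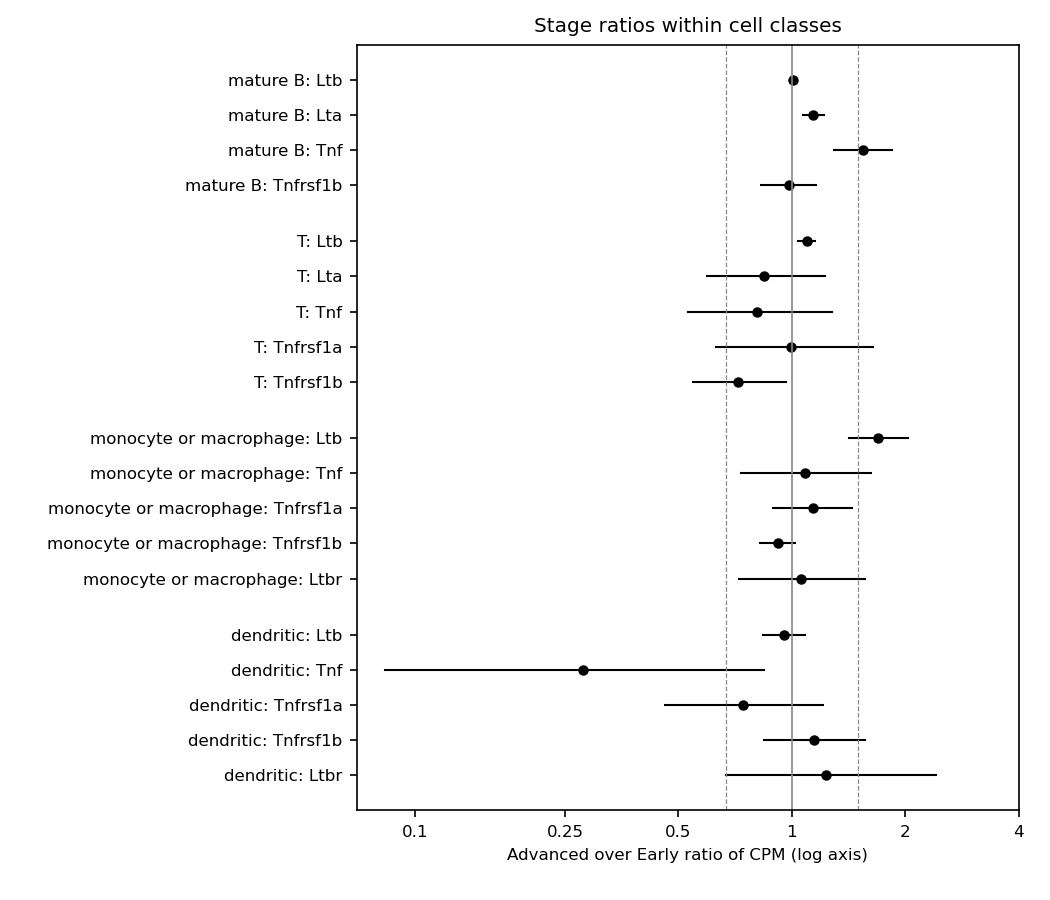
Advanced over Early ratio of CPM (log axis) for genes with enough UMIs in each main class, with exact conditional 95% intervals that cover counting error only, a solid line at 1 and dashed lines at 1.5-fold. Ltb in mature B cells had a ratio of 1.00 and Tnf in mature B cells 1.55.

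In mature B cells Ltb had a ratio of 1.00 (0.993 to 1.02), and of 0.939 with TMM factors, which scale by a trimmed mean over genes. Lta was slightly higher in the Advanced library, 37.8 against 33.1 CPM, a ratio of 1.14 (1.07 to 1.22), and lay above 1 in CD23+ CD21+ cells (1.14, 1.04 to 1.26) and in CD23-low CD21+ cells (1.23, 1.09 to 1.40). The median ratio over all genes in mature B cells was 0.06 on the log2 scale, in the same direction. Tnf was higher in the Advanced library, 5.92 against 3.83 CPM, a ratio of 1.55 (1.30 to 1.85), on counts of 301 and 222 UMIs. Its ratio was above 1 in each of the 6 groups of mature B cells, between 1.30 in CD23+ CD21+ cells (0.991 to 1.72) and 1.83 in other mature B cells (0.981 to 3.45), and the interval lay wholly above 1 in CD23-low CD21+ cells alone (1.69, 1.19 to 2.40). Less the traces of other classes, the levels were 5.75 and 3.76 CPM. Tnfrsf1b did not differ beyond its interval (0.981, 0.829 to 1.16).

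In T cells the libraries differed in the groups that made up the class, since CD8 T cells were 471 of 1079 Advanced and 33 of 152 Early cells, and regulatory T cells 172 and 67. The median ratio over all genes was -0.26 on the log2 scale. Ltb had a ratio of 1.09 (1.04 to 1.16), which turned to 0.802 without the 5% of cells with the most UMIs and to 0.913 with each cell weighted equally. The ratio was 0.721 for Tnfrsf1b (0.546 to 0.965), 0.842 for Lta (0.594 to 1.22), 0.809 for Tnf (0.530 to 1.28) and 0.993 for Tnfrsf1a (0.627 to 1.64). Within regulatory T cells Tnfrsf1b had a ratio of 1.22 (0.822 to 1.84) and within CD8 T cells 0.907 (0.393 to 2.57), both with 1 inside the interval. Ltb within CD8 T cells had a ratio of 0.992 (0.897 to 1.10) and within regulatory T cells 1.08 (0.976 to 1.19). By contrast, the other T cells and the T cells with NK genes, at 23 and 9 Early cells, had Ltb ratios of 2.11 and 2.01, and innate-like T cells, at 44 and 8 cells, had a ratio of 0.728 (0.613 to 0.868).

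In monocytes or macrophages the receptors were close to even between the stages: the ratio was 1.14 for Tnfrsf1a (0.893 to 1.45), 0.916 for Tnfrsf1b (0.823 to 1.02) and 1.06 for Ltbr (0.723 to 1.56), and 1.08 for Tnf (0.732 to 1.62). Ltb was the exception, at 247 CPM in the Advanced library (427 UMIs) against 145 CPM in the Early library (174 UMIs), a ratio of 1.70 (1.42 to 2.03). The highest cell had 22 and 8 UMIs, and the share with at least 3 UMIs was 67 of 166 cells against 24 of 94. By the sum of the B cell genes, the B cell RNA level in these cells was 29.6 and 22.5 CPM of Ltb, a level that depends on the genes used. Without the 5% of cells with the most UMIs the ratio was 1.35. The cause of the difference was not tested. In dendritic cells Ltb had a ratio of 0.953 (0.838 to 1.09), Tnfrsf1b 1.14 (0.846 to 1.56), Ltbr 1.24 (0.668 to 2.41) and Tnfrsf1a 0.741 (0.460 to 1.21), all with 1 inside the interval. Without the 5% of cells with the most UMIs, the dendritic ratio was 2.12 for Tnfrsf1a and 0.697 for Tnfrsf1b. Tnf there was 6 UMIs in 6 Advanced cells against 10 UMIs in 3 Early cells, a ratio of 0.278 (0.0831 to 0.844), with 5 of the Early UMIs in 1 cell.

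**Figure D5:**
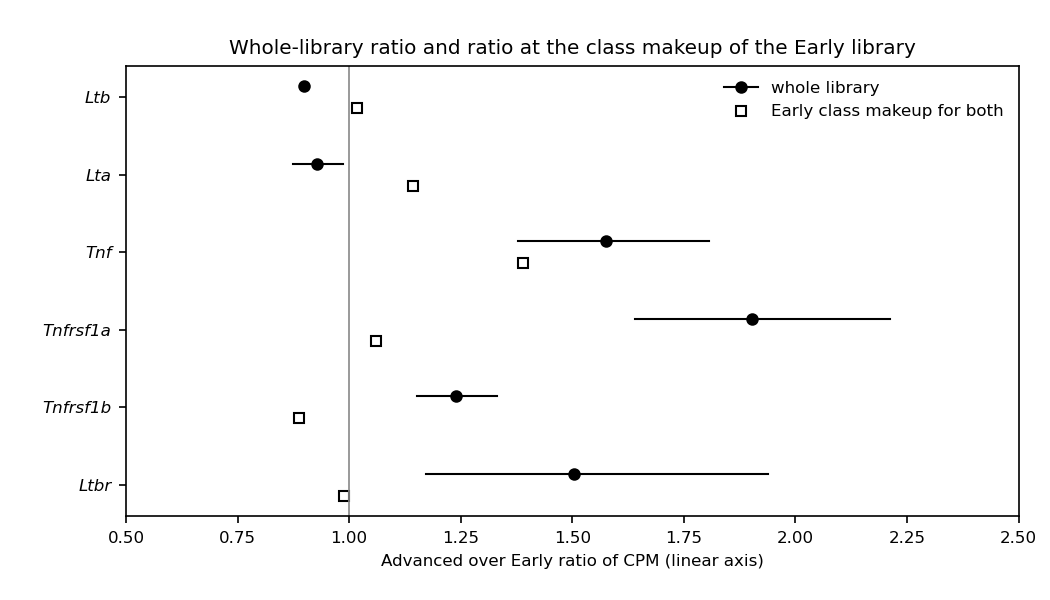
Advanced over Early ratio of CPM (linear axis) of each gene over the whole library, as filled points with exact conditional 95% intervals, and with the class makeup of the Early library held for both, as open squares. The ratio of Tnfrsf1a was 1.90 over the whole library and 1.06 at the Early makeup.

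The whole libraries were compared next. Over all cells, Tnfrsf1a was 7.18 CPM in the Advanced and 3.77 CPM in the Early library, a ratio of 1.90 (1.64 to 2.21). Tnfrsf1b was 22.9 and 18.5 CPM (1.24, 1.15 to 1.33), Ltbr 2.23 and 1.48 CPM (1.504, 1.17 to 1.94) and Tnf 7.67 and 4.87 CPM (1.58, 1.38 to 1.81). Ltb was lower, at 899 and 999 CPM (0.900, 0.891 to 0.909), and so was Lta at 27.4 and 29.5 CPM (0.928, 0.874 to 0.986). When the share of UMIs held by each class in the Early library was used for both, the ratio was 1.06 for Tnfrsf1a, 0.888 for Tnfrsf1b, 0.990 for Ltbr, 1.02 for Ltb and 1.14 for Lta. Receptor transcripts thus made up more of the UMIs, and lymphotoxin less, in the Advanced library, alongside more T and myeloid cells and fewer B cells. The libraries were of sorted cells with no gated stromal class, so levels in the node as a whole were not read. For Tnf the ratio at the Early makeup was 1.39.

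Genes that act with the family were read in the same classes. In mature B cells, 0 of 24 measured genes of TNF receptor signalling, which relay or restrain the signal inside the cell, were past the fold, and their median ratio on the log2 scale was 0.07, against 0.06 over all genes. Among the largest were Otulin, a deubiquitinase of linear chains, at 159 and 129 CPM (1.24, 1.20 to 1.28), and Tnfaip3, which encodes the inhibitor A20, at 18.1 and 15.2 CPM (1.20, 1.09 to 1.31). In T cells 1 of 24 was lower: Nfkbia, which encodes the NF-kB inhibitor IkB alpha, at 173 and 287 CPM (0.601, 0.550 to 0.658), where 9.57% of all T cell genes tested were lower. In monocytes or macrophages 0 of 25 were past the fold, though Nfkbia stood at 610 and 851 CPM (0.716, 0.657 to 0.781) and Birc3, which encodes a ubiquitin ligase of the receptor complex, at 118 and 190 CPM (0.621, 0.512 to 0.754). In dendritic cells 0 of 23 were past the fold, with Nfkbia at 714 and 952 CPM (0.750, 0.696 to 0.810). In mature B cells the ratio of Nfkbia, itself a target of NF-kB, was 0.968 (0.940 to 0.997). The ratios depend on the scaling of each class: TMM factors moved all T cell ratios by 0.26 and all mature B cell ratios by -0.10 on the log2 scale. With them the median of the list was -0.02 in mature B cells and 0.16 in T cells, and Nfkbia in T cells stood at 0.721 (0.659 to 0.790), no longer past the fold.

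The arm below the lymphotoxin beta receptor, Traf3, Map3k14, Nfkb2 and Relb, which carry the alternative NF-kB pathway, had 4 of 4 genes measured in each of the 4 classes and 0 past the fold in any. In mature B cells the ratios of the 4 genes lay between 1.05 for Traf3 and 1.13 for Relb, and with TMM factors 3 of 4 were above 1. Nfkb2 was 97.6 and 125 CPM in monocytes or macrophages (0.779, 0.621 to 0.977) and 94.8 and 119 CPM in dendritic cells (0.795, 0.641 to 0.989). The median of the arm was 0.13, -0.00, 0.10 and -0.03 on the log2 scale in mature B cells, T cells, monocytes or macrophages and dendritic cells. Of the genes of shedding, 4, 2, 3 and 4 of 5 were measured in the same classes. Rhbdf1, which encodes a rhomboid-like regulator of ADAM17, was past the fold in mature B cells at 12.3 and 7.06 CPM (1.74, 1.53 to 1.98, but 1.63, 1.43 to 1.85, with TMM factors), and Timp3, an inhibitor of ADAM17, was lower in dendritic cells with 1 Advanced and 23 Early UMIs. Adam17 itself was 24.2 and 24.7 CPM in mature B cells (0.979, 0.906 to 1.06) and 105 and 145 CPM in monocytes or macrophages (0.723, 0.584 to 0.895).

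Proteins that bind Tnf mRNA and set its decay or translation showed 0 of 9 genes past the fold in each class. Their median log2 ratio was 0.05, 0.04, 0.30 and 0.09 in mature B cells, T cells, monocytes or macrophages and dendritic cells. The medians over all genes were 0.06, -0.26, 0.05 and -0.003 in the same order. Under TMM factors the list medians were -0.04, 0.30, 0.23 and 0.09, so monocytes or macrophages did not stand apart from T cells. In monocytes or macrophages Zfp36l2 stood at 537 and 356 CPM (1.51, 1.34 to 1.69). Zfp36, which encodes tristetraprolin, stood there at 985 and 888 CPM (1.11, 1.03 to 1.20). Of the 4 genes of the neighbouring HVEM axis, 1, 2, 1 and 1 were measured and 0 past the fold. Btla, an inhibitory receptor for HVEM, was 74.2 and 64.8 CPM in mature B cells (1.14, 1.09 to 1.20). Of the 7 stromal targets of the family, 1, 2, 1 and 3 were measured. Tnfsf11, which encodes the osteoclast factor RANKL, was lower in Advanced T cells at 8.18 and 18.8 CPM (0.435, 0.300 to 0.641, but 0.521, 0.359 to 0.769, with TMM factors), and Madcam1 in dendritic cells had 1 Advanced and 26 Early UMIs, where the whole libraries held 16 UMIs in 7 cells and 29 UMIs in 4 cells. The follicular chemokine Cxcl13 had 125 UMIs in 27 Advanced cells and 18 UMIs in 17 Early cells of the whole libraries.

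The genes most like each member in their level over 12 cell groups, among 9579 genes searched, were found from the correlation of log2 CPM with a pseudocount of 10 CPM, taken within each library and averaged. The 12 groups share libraries and free RNA, so the values are descriptions. For Ltb they were Gimap7 and Gimap8, GTPases of lymphocyte survival, BE692007 and Prkd2, with mean r between 0.935 for Prkd2 and 0.941 for Gimap7. Lta was closest to Ppp1r16b (0.960), Snrnp48, Lax1 and Dus2. Tnf was closest to Itgav, an integrin chain (0.899), Spen, Dgat2 and Cap1. The receptors were led by genes of non-classical monocytes: Gsr, Itgb2, Scp2 and St3gal4 for Tnfrsf1a (0.984 for Gsr), L1cam, Fam234a, Tnip1 and Zfp467 for Tnfrsf1b (0.967 for L1cam), and Hfe, Nlrp3, Ptpro and Gcnt2 for Ltbr (0.998 for Hfe). Each of these 12 genes was highest in non-classical monocytes at both stages, and so was each of the 4 genes named for Tnf. They were picked for likeness to members that were themselves highest in that group. The shared peak is thus largely given by the choice and is no separate result.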

How the data were processed

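Count matrices of 2 libraries were used, 1 per stage. The authors deposited them as raw UMI counts per gene and cell barcode, made with 10x Genomics 3' chemistry. Per the file headers they came from Cell Ranger 6.0.1. The processing notes of the submitters list mm10 as the build, Seurat 4.0.3, and versions 3.1 and 3.1.0 of Cell Ranger. The strand setting was not given in the sources used here. Cells with at least 200 genes were kept. A class was assigned from summed raw UMIs of fixed marker panels (for T cells, for example, at least 4 UMIs of Cd3d, Cd3e and Cd3g), no doublet caller was run, and cells past the minimum of more than 1 lineage were kept apart.

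UMIs were summed per class and library and divided by the class total. Exact Poisson intervals were given for levels, exact conditional binomial intervals for ratios and Clopper-Pearson intervals for shares, all at 95%. They cover counting error alone, since each stage is 1 library of pooled nodes, and no test was made. Shares of cells were also computed after thinning each cell to 2000 UMIs, leaving out shallower cells. Against a count of 0, the lower end of the interval of the ratio was given. A gene was past the fold when it reached 10 CPM in 1 library and its interval lay wholly beyond 1.5-fold. B cell RNA in other classes was scaled from the summed CPM of 4 B cell genes. That scaling without Fcrla, and the traces of other classes in B cells, were added after the data had been seen.

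The members and the gene lists were chosen with earlier results of these data known. The genes named were the 6 members, up to 4 genes per list and main class with the interval farthest from 1, any list gene a sentence turned on, and the 4 genes most like each member. The gate minimums were set on the marker UMIs. Ratios were recomputed under 8 alternatives, among them TMM factors from edgeR. The ratio calculation was tested on simulated data. The tools were Python 3.11.15 with numpy 2.4.6, pandas 2.3.3 and scipy 1.17.1, and R 4.3.3 with edgeR 4.0.16. Barcodes numbered 8201 and 8242 in the Advanced and the Early library, with 83148059 and 67610110 UMIs in all.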

Additional observations from a re-analysis of the deposited data

How the results depend on the processing

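No paired analysis was possible because each stage was 1 library. Of 152 recomputed values of 19 ratios of a member in a class, 140 lay inside the counting interval and 23 on the other side of 1. Tnf in mature B cells kept to between 1.45 and 1.65. With TMM factors Ltb was 0.939 in mature B cells and 1.31 in T cells, and Lta 1.07 in mature B cells. Ltb in mature B cells was 0.984 with mixed cells placed. Ltb in T cells was 1.29 with totals free of immunoglobulin, ribosomal protein and mitochondrial genes and 0.913 with each cell weighted equally. Without the 5% of cells with the most UMIs, the ratio was 0.802 for Ltb, 0.528 for Lta and 0.505 for Tnfrsf1b in T cells, 1.35 for Ltb in monocytes or macrophages, and 2.12 for Tnfrsf1a and 0.697 for Tnfrsf1b in dendritic cells. The causes were not tested. Over gated cells only, the whole-library ratio of Ltb was 0.919. Genes past the fold, higher then lower in the Advanced library, numbered 422 and 16 in mature B cells and 76 and 158 in dendritic cells with no minimum CPM. With a minimum of 50 CPM they numbered 5 and 0 in mature B cells, 58 and 361 in T cells, 23 and 14 in monocytes or macrophages and 10 and 22 in dendritic cells. With a 2-fold limit they numbered 10 and 0, 36 and 324, 31 and 29, and 23 and 57 in the same order. TMM factors gave 4 lower in mature B cells and 279 and 397 in T cells. Thinned to 1000 UMIs, 20 of 48 shares lay inside the interval at 2000. Depth limits Lta, Tnf and Ltbr in classes of under 100 cells, where 1 cell can hold most UMIs, and the 1 library per stage limits every difference between stages.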
